A study of Bos taurus with 7 samples.

Results

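Prostaglandin genes were examined in the rumen epithelium of Holstein calves: 10 genes that release arachidonic acid, turn it into prostaglandins, carry and break down the product, or sense prostaglandin E2. The members are the probes whose gene name in the scanner files equals PLA2G4A, PTGS1, PTGS2, PTGES, PTGES2, PTGDS, SLCO2A1, HPGD, PTGER2 or PTGER4. All 10 symbols were on the array, with 1 probe each, among 14952 gene names in all. Each of 7 calves gave 1 single-colour array: 3 calves received forage (HAY, calves 9, 10 and 13) and 4 did not (CON, calves 8, 11, 12 and 14), and the design names 3 weeks after weaning. Calf starter is named in the title for the study as a whole, and no label gives a genotype or an age. Each calf is a separate animal.

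Prostaglandins are short-lived lipid signals. A phospholipase frees arachidonic acid from membranes, the cyclooxygenases convert it to prostaglandin H2, and terminal synthases turn that into prostaglandin E2, D2 and others. Prostaglandin E2 acts through receptors of which EP2 and EP4 raise cyclic AMP, and it is cleared by uptake into cells and oxidation. In squamous epithelia and the tissue beneath them, this pathway is known for its part in inflammation, blood flow and the growth of keratinocytes.

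All members were measured on every array, and their probes place 4 of them on chromosome 11 and 2 on chromosome 16 of UMD_3.1, the build named in the scanner files. The probe sequences shown are those of the genes that the differences turn on, with PTGS2 beside them as the inducible cyclooxygenase. Each is written 5′ to 3′ in the sense of the messenger RNA. The PTGES probe, for RefSeq NM_174443 at chr11:100143651-100143710 on the minus strand, is shown from base 25 to 54. Capitals mark AATAAA, the polyadenylation hexamer, which 9.51% of the 15008 probes of the array hold in this sense and 12.6% on either strand. The PLA2G4A probe, for NM_001075864 at chr16:69620616-69620675 on the plus strand, is shown from base 31 to 60. Capitals there mark TAG, the first stop triplet of frame 1, after 17 triplets. Every sense frame of this probe holds a stop triplet and its coding frame was not looked up. TAG is thus not shown to be the stop codon of the gene. The probes of PTGDS (NM_174791, chr11:106248104-106248770, minus), HPGD (NM_001034419, chr8:6644458-6644517, minus) and PTGS2 (NM_174445, chr16:69268247-69268306, minus) are shown whole, with no capitals. Each of these 3 has at least 1 sense frame with no stop triplet. The 60 bases of the PTGDS probe cover 667 bases of the genome, so its bases are not contiguous there.
PTGES: atccagggatgtAATAAAtgaggacttctc
PLA2G4A: attcatgccatgagacaacacTAGttttta
PTGDS: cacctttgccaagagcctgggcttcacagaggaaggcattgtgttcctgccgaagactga
HPGD: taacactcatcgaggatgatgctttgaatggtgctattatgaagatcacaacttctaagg
PTGS2: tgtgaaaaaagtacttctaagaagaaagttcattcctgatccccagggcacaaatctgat

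The other probes lie at chr11:93244974-93245033 for PTGS1 (plus), chr11:98772496-98772555 for PTGES2 (minus) and chr1:136528451-136528510 for SLCO2A1 (plus). Those of the receptors lie at chr10:11785401-11785460 for PTGER2 (minus) and chr20:33774243-33774302 for PTGER4 (minus). PTGS2 and PLA2G4A both lie on chromosome 16, with 352.3 kb between their probes.

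Between 81.5 and 84.6% of the spots of an array stood well above background, and 10 to 20 spots were saturated, none of them of a member. All 7 arrays shared 1 slide and 1 scan. The HAY arrays lay in its row 1 and the CON arrays in row 2, so feeding and slide row cannot be told apart. Of the 13 squamous epithelial markers on the array, 12 were well above background on every array. The exception was KRT4, a keratin of moist squamous epithelia, which cleared the background on all 4 CON arrays and on no array of the HAY calves. It was at least 3.63-fold lower in HAY, a bound set by the dimmest signals well above background on the HAY arrays. Its limma adjusted p of 0.163 does not test this bound, since the gene was tested only through the CON arrays. KRT4 was singled out after its values were seen. Markers of stroma and leukocytes were measured as well, and their levels stand beside the results they move with.

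PTGES, the inducible synthase that makes prostaglandin E2, differed most of the members, with lower values in HAY. Levels are given as a percentage of the 75th percentile of each array, always in the order of calves 9, 10 and 13 with forage and calves 8, 11, 12 and 14 without it. PTGES stood at 54.9, 45.7 and 42.0% with forage, and without forage at 307.1, 156.7, 100.4 and 100%. Every CON calf was above every HAY calf, and CON calf 8 was the highest. On the log2 scale, where 0 is the 75th percentile, HAY had a mean of -1.08 ± 0.20 (SD, n = 3). The mean of CON was 0.57 ± 0.76 (SD, n = 4). PTGES was thus 3.14-fold lower with forage, a log2 difference of -1.65 (SE 0.39, 95% interval -2.56 to -0.74). The unadjusted p from limma was 0.00339, and the p adjusted over all 12604 probes tested was 0.215, so the difference did not pass the threshold of 0.05.

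PLA2G4A, the cytosolic phospholipase that frees arachidonic acid, had higher values in HAY by a smaller step. It stood at 51.5, 41.1 and 45.2% with forage and, without it, at 34.4, 36.6, 31.9 and 36.6%. The groups did not overlap, and the CON calves lay close together. PLA2G4A was 1.31-fold higher with forage, by 0.39 on the log2 scale (SE 0.14, 95% interval 0.08 to 0.71). The limma p was 0.0217 before adjustment and the adjusted p was 0.297, so the difference did not pass.

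No member passed the adjusted threshold in limma, nor did nearly any other probe: 1 of 12604 did (0.00793%). At an unadjusted p under 0.05 stood 1 member with higher values in HAY, PLA2G4A, and 1 with lower values, PTGES. Among all probes, 6.78% met this with higher and 7.16% with lower values, so 1 in 10 members each way is near the background. Of all probes at that p, 48.6% had higher values with this scaling and 61.5% with median centring. The groups did not overlap, with HAY above, in 1 member against 6.55% of all probes. With HAY below it was 1 member against 5.29%. The median log2 difference was 0.05 over the 10 members and 0.03 over all probes tested, with 6 members higher and 4 lower.

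**Figure D1:**
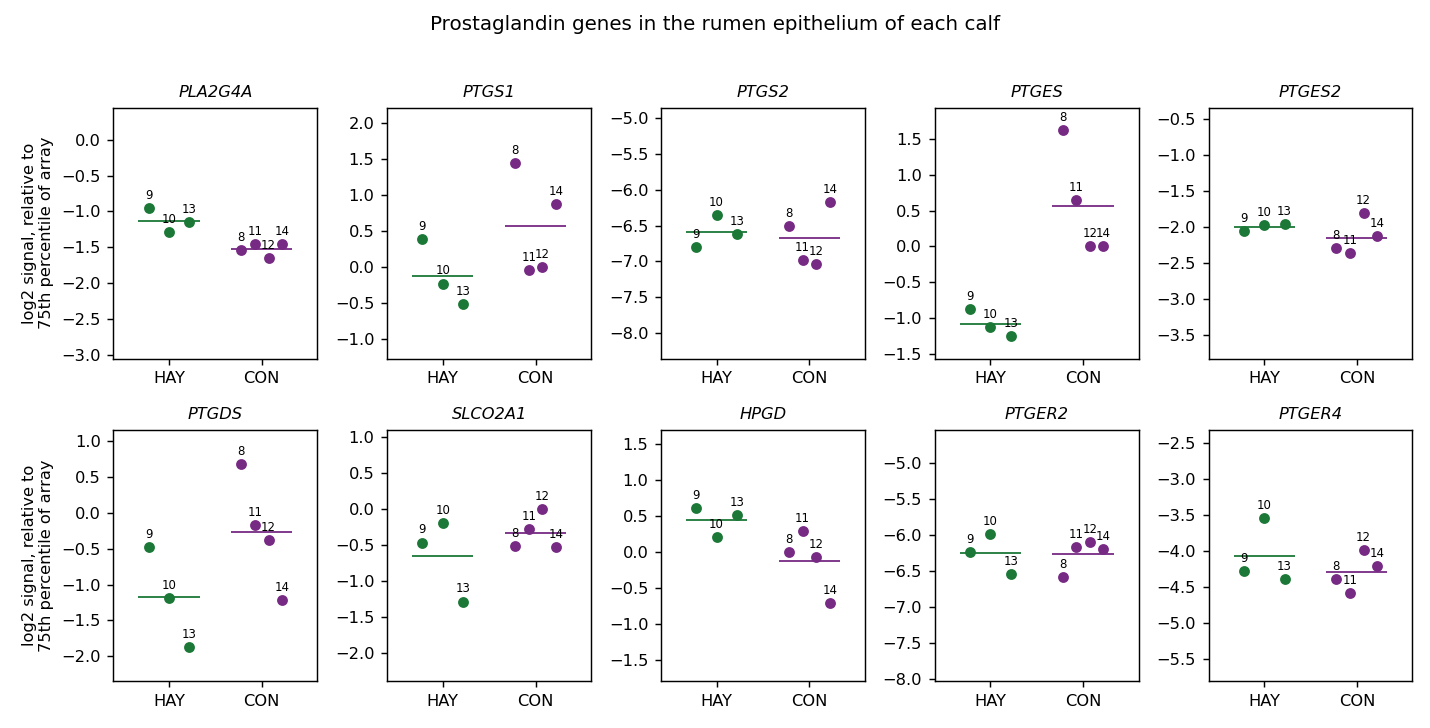
Log2 signal of the 10 prostaglandin genes in each calf, relative to the 75th percentile of its array. Points are calves with their numbers, lines are group means, and each panel spans the same number of log2 units. PTGES and PLA2G4A are the genes whose groups do not overlap.

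The cyclooxygenases make the prostaglandin H2 from which all prostaglandins derive. PTGS1, the constitutive form, stood at 130.5, 85.3 and 70.1% with forage and, without it, at 274.1, 97.4, 99.8 and 183.4%. The groups overlapped, since HAY calf 9 was above CON calves 11 and 12. The log2 difference was -0.69 (SE 0.41, 95% interval -1.64 to 0.26, limma adjusted p = 0.484), and it was -0.40 without CON calf 8.

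PTGS2, the form that inflammation and growth factors induce, was dim on every array. It stood at 0.895, 1.22 and 1.02% with forage, and without forage at 1.1, 0.795, 0.762 and 1.38%. These values overlapped fully, with the highest and the lowest both in CON. Its groups differed by 0.08 on the log2 scale (SE 0.24, 95% interval -0.48 to 0.65, adjusted p = 0.909), and with normexp background correction it was -0.13, so no direction can be given.

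Of the other terminal synthases, PTGES2, a membrane-associated prostaglandin E synthase, stood at 24.2, 25.5 and 25.7% with forage and 20.4, 19.5, 28.6 and 23.0% without. The HAY calves lay within the range of the CON calves. Its log2 difference was 0.15 (SE 0.16, 95% interval -0.23 to 0.53, adjusted p = 0.723), with the opposite sign to that of PTGES.

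PTGDS, the lipocalin-type prostaglandin D synthase, stood at 71.7, 44.0 and 27.4% with forage and, without it, at 160.6, 88.6, 76.9 and 42.9%. CON calf 14 lay below HAY calves 9 and 10, so the groups overlapped. HAY minus CON came to -0.90 on the log2 scale (SE 0.48, 95% interval -2.02 to 0.21, adjusted p = 0.438). It was -0.59 without CON calf 8, -0.56 without HAY calf 13 and -0.24 without both.

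SLCO2A1, the transporter that takes prostaglandins into cells for breakdown, stood at 72.5, 87.8 and 41.0% with forage and 69.9, 82.8, 100.1 and 69.6% without. HAY calf 13 was the lowest and the other calves of both groups mixed. HAY minus CON was -0.32 on the log2 scale (SE 0.28, 95% interval -0.97 to 0.33, adjusted p = 0.647), and without HAY calf 13 it was 0.0016, so the sign rested on that calf.

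HPGD, the 15-hydroxyprostaglandin dehydrogenase that oxidises prostaglandin E2 to an inactive form, had mostly higher values in HAY. It stood at 153.4, 116.1 and 142.6% with forage and, without it, at 99.6, 122.4, 95.2 and 61.2%. The separation was not complete, CON calf 11 being above HAY calf 10. HPGD was 1.49-fold higher with forage, by 0.57 on the log2 scale (SE 0.25, 95% interval -0.0011 to 1.14). The limma p was 0.0504 unadjusted and 0.359 adjusted, and it did not pass. The difference kept its sign in all 17 alternatives, from 0.38 without CON calf 14 to 0.71 without CON calf 11, with an unadjusted p under 0.05 in 8 of them. Those that changed the filter, the spot averaging or the variance prior left the difference as it was, so they could not turn its sign.

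The receptors EP2 and EP4 both couple to cyclic AMP. PTGER2, which encodes EP2, was dim. It stood at 1.33, 1.58 and 1.07% with forage and at 1.04, 1.39, 1.46 and 1.37% without. The groups lay over each other, with a difference of 0.0077 on the log2 scale (SE 0.19, 95% interval -0.44 to 0.45, adjusted p = 0.991) and of -0.10 with normexp. PTGER4, which encodes EP4, stood at 5.17, 8.60 and 4.75% with forage and, without it, at 4.76, 4.17, 6.31 and 5.41%. HAY calf 10 was the highest and the rest overlapped. PTGER4 differed by 0.22 on the log2 scale (SE 0.25, 95% interval -0.35 to 0.80, adjusted p = 0.729), and -0.04 without HAY calf 10.

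**Figure D2:**
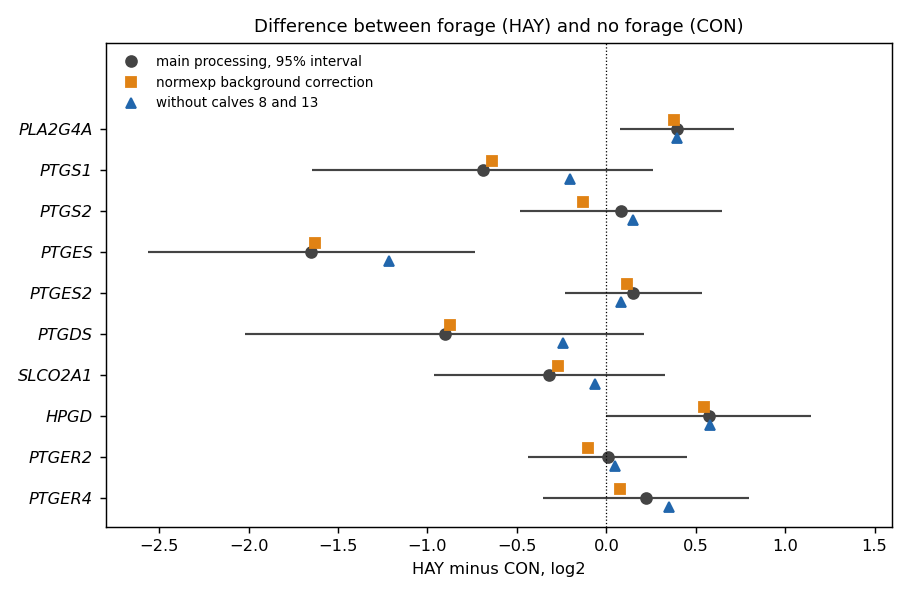
Difference in log2 signal, HAY minus CON, for each prostaglandin gene. Circles with lines are the main values with 95% intervals, squares the values with normexp background correction and triangles those without calves 8 and 13. The interval lies wholly below 0 for PTGES and wholly above 0 for PLA2G4A, before any adjustment. The triangles of PTGES, PTGDS, PTGS1, SLCO2A1 and PTGES2 lie nearer to 0 than their circles.

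Levels of stromal and myeloid markers differed along with these genes. In bulk tissue, fewer cells of a type and less RNA per cell cannot be told apart. The summed level of the tested markers, where 1 equals the 75th percentile of the array, was 15.4 to 36.2 in HAY and 36.4 to 85.5 in CON for 9 smooth muscle genes (MYLK and CALD1 the brightest). For 11 fibroblast genes (COL3A1, COL1A2) it was 16.2 to 73.4 in HAY and 49.4 to 237.2 in CON, and for 11 endothelial genes (CLDN5, VWF) 2.57 to 7.99 and 5.82 to 13.3. For 8 macrophage and myeloid genes (CSF1R, AIF1) it was 6.44 to 6.94 in HAY and 9.88 to 15.5 in CON, without overlap. The squamous sum (KRT6A, KRT15) was 538.8 to 621.8 in HAY and 437.1 to 614.7 in CON, with KRT6A saturated on 1 array, so that the sum is a lower limit there. The sums for 5 mast cell genes (HDC, SRGN), 1.97 to 3.50 and 1.59 to 4.34, and 8 T and NK genes (CD3G, NKG7), 1.05 to 2.63 and 1.02 to 1.77, overlapped between the groups. Gene by gene, 5 of 8 T and NK markers were lower with forage (median difference over the list -0.83). At an unadjusted limma p under 0.05 stood 3 of them, CD3E, CD5 and NKG7, beside 7.16% of all probes with lower values. The other 3 markers had higher values in HAY: CD3G by 0.60, CD3D by 0.33 and CD2 by 0.11. The CD3 genes thus went both ways. CD3E and CD5 were well above background on 3 CON arrays each and on no HAY array. They were thus tested only through the CON calves, and their p is no support. Set against the dimmest signals well above background on the HAY arrays, the CON mean was 2.12-fold higher for CD3E and 2.02-fold for CD5. These are not firm bounds, since 1 CON array of each gene was not well above background and entered at its measured value. For CD3E the groups overlapped, with CON calf 14 (log2 signal -7.31) below HAY calf 9 (-7.06). Of 5 mast cell markers 3 had lower values, with a median of -0.57, and SRGN differed by -1.59 without overlap (adjusted p = 0.165). The other 2 had higher values in HAY, HDC, the brightest of the list, by 1.12 and TPSB1 by 0.32. All 9 smooth muscle, all 11 fibroblast, all 11 endothelial and 7 of 8 myeloid markers had lower values in HAY, and none in these lists passed the adjusted threshold. Of all 12604 probes tested, 5731 had lower values. The myeloid exception was CD68, at 0.28. Lower values at an unadjusted limma p under 0.05 were seen in 7 smooth muscle, 6 fibroblast, 3 endothelial and 6 myeloid markers, beside 7.16% of all probes. Markers not well above background on any array were ITGAM in the myeloid list, CPA3 in the mast cell list and CD4 in the T and NK list.

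Within each group, PTGES and PTGDS put the calves in the same order as the summed smooth muscle and fibroblast markers. That order was 9, 10 and 13 in HAY and 8, 11, 12 and 14 in CON. The sums are linear, so the brightest genes, MYLK, CALD1, COL3A1 and COL1A2, which each had this order, weigh most. Other single markers did not share it. In CON, ACTA2, TAGLN, CNN1 and DES ran 8, 11, 14 and 12, and LUM, SPARC and POSTN ran 8, 12, 11 and 14. PTGES was nearly tied in CON calves 12 and 14, at 100.4 and 100%. PTGS1 and the endothelial sum had this order in HAY only. In CON, PTGS1 ran 8, 14, 12 and 11, and the endothelial sum 8, 12, 11 and 14. The myeloid sum ran 9, 13 and 10 in HAY and 11, 8, 12 and 14 in CON. HAY calf 9 and CON calf 14 stood at 73.4 and 49.4 in the fibroblast sum, at 36.2 and 36.4 in the smooth muscle sum and at 6.94 and 9.88 in the myeloid sum. Without calves 8 and 13, at the ends of the fibroblast sum, PTGES was 2.32-fold lower in HAY (log2 difference -1.22, limma adjusted p = 0.504). PTGS1 then differed by -0.20 and PTGDS by -0.24, while PLA2G4A, at 0.40, and HPGD, at 0.58, were close to their values in all calves. For PTGES, PTGS1 and PTGDS, calf 8 was the highest CON calf and calf 13 the lowest HAY calf. Leaving both out therefore had to shrink those differences. For PLA2G4A and HPGD neither calf was at such an end, so the contrast between the genes was set by the choice of calves. The part of stromal and myeloid RNA in the differences of PTGES, PTGS1 and PTGDS was not tested.

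**Figure D3:**
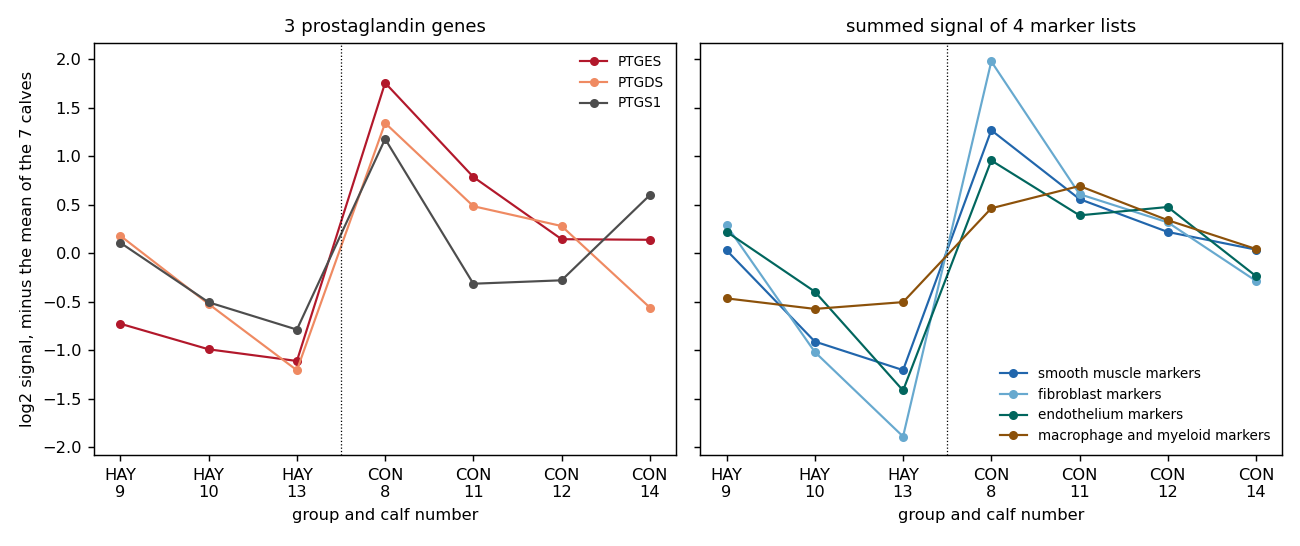
Left, log2 signal of PTGES, PTGDS and PTGS1 in each calf. Right, log2 of the summed signal of 4 marker lists in the same calves. Each line has the mean of the 7 calves subtracted, and the dotted line parts HAY from CON. CON calf 8 is highest and HAY calf 13 lowest in 6 of the 7 lines; the myeloid markers are the exception.

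Other eicosanoid genes were read from 9 lists covering phospholipases, synthases, breakdown, receptors, transporters, lipoxygenases, cyclic AMP signalling, inducers of PTGS2 and inhibitors. Of 104 such genes on the array 90 were tested, 45 with higher and 45 with lower values in HAY, and none passed the adjusted threshold in limma. At an unadjusted p under 0.05 stood 7 of the 90 with higher and 19 with lower values, beside 6.78% and 7.16% of all probes. The groups did not overlap, with HAY above, in 4 and, with HAY below, in 11, beside 6.55% and 5.29%. The median difference was -0.01, against 0.03 over all probes.

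Among 8 other prostanoid receptors, 4 had higher and 4 lower values. PTGER3, which encodes EP3, a receptor that lowers cyclic AMP, stood at 2.29, 0.848 and 0.970% with forage and at 7.90, 3.12, 3.40 and 1.77% without. The groups overlapped between HAY calf 9 and CON calf 14. It differed by -1.50 on the log2 scale (SE 0.54, adjusted p = 0.302), by -0.64 with normexp and by -0.93 without calves 8 and 13. TBXA2R, the thromboxane receptor, had a difference of 0.63 (SE 0.16, adjusted p = 0.232) without overlap, and of 0.13 with normexp. PTGFR, the prostaglandin F receptor, had one of -0.69 (SE 0.20) without overlap, and 2 of the 3 HAY arrays measured it above background. With normexp PTGFR differed by -0.26 and was no longer at an unadjusted p under 0.05, and without calves 8 and 13 by -0.45. PTGER1, for EP1, differed by 0.38 (SE 0.19), or 0.058 with normexp, and PTGIR, the prostacyclin receptor, by 0.08 (SE 0.27), a sign that turned with normexp. PTGIR was measured above background on 2 arrays of each group.

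PTGDR, a receptor of prostaglandin D2, was singled out after its values were seen. It stood at 0.998, 0.955 and 0.879% with forage. The CON calves lay in 2 pairs, with calves 11 and 12 at 1.58 and 1.51% and calves 8 and 14 at 18.5 and 29.8%. The groups did not overlap, and the log2 difference was -2.68 (SE 1.11, adjusted p = 0.349), or -1.91 without CON calf 14. With normexp it was -1.50 and no longer at an unadjusted p under 0.05. The mean of the CON calves describes neither pair, and what parts the pairs was not tested.

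Among 8 other synthases, 4 had higher and 4 lower values. TBXAS1, the thromboxane synthase, stood at 3.96, 1.89 and 1.33% with forage and 4.11, 4.94, 4.68 and 4.86% without. The CON calves lay close together and HAY calf 9 just below them. TBXAS1 differed by -1.11 on the log2 scale (SE 0.34, adjusted p = 0.269), and -0.49 with normexp. FAM213B, which encodes a prostamide and prostaglandin F synthase, had a difference of -0.38 (SE 0.15) without overlap. The cytosolic prostaglandin E synthase PTGES3 differed by -0.13 (SE 0.17, 95% interval -0.52 to 0.27), the hematopoietic prostaglandin D synthase HPGDS by 0.32 (SE 0.23) and the prostacyclin synthase PTGIS by 0.20 (SE 0.14). AKR1B1, an aldose reductase that also makes prostaglandin F2-alpha, differed by -0.35 (SE 0.18).

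**Figure D4:**
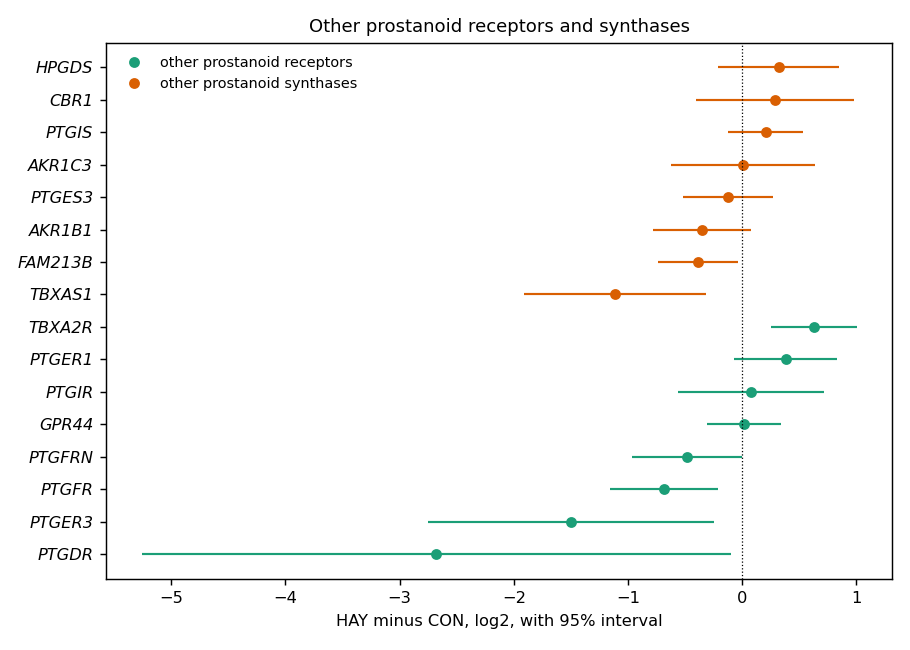
Difference in log2 signal, HAY minus CON, with 95% intervals, for the other prostanoid receptors and synthases tested. The intervals of PTGDR, PTGER3, PTGFR, TBXAS1 and FAM213B lie below 0 and that of TBXA2R above it, before any adjustment.

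Of 10 other phospholipases tested, 7 had higher and 3 lower values. PLA2G7, a secreted phospholipase of macrophages that inactivates platelet-activating factor, had a log2 difference of -2.03 (SE 0.65, adjusted p = 0.274), of -0.96 with normexp and of -1.26 without calves 8 and 13. PLA2G5 had one of -1.12 (SE 0.35) without overlap, and of -0.74 without HAY calf 9, where it was the lowest, and -0.35 with normexp. It stood above background on 2 of the 3 HAY arrays. PLA2G4F, a cytosolic relative of PLA2G4A, differed by 0.73 (SE 0.38), by 0.39 once HAY calf 13 was left out and by 0.19 without calves 8 and 13. Leaving out HAY calf 9 gave 1.098. PLA2G3 was not well above background on any array and PLA2G4B on 1 of each group.

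The 5 breakdown genes tested had a median difference of 0.14, with 4 higher and 1 lower in HAY and none at an unadjusted p under 0.05. PTGR3, named ZADH2 in the files, is a prostaglandin reductase and differed by 0.28 (SE 0.16). CBR1, a carbonyl reductase also counted among the synthases, differed by 0.29 (SE 0.30), and CBR3 by -0.16 (SE 0.22). Of 6 other transporters tested, 4 had higher and 2 lower values. ABCC4, an exporter of prostaglandins, had a difference of -0.63 (SE 0.24, adjusted p = 0.324). SLC22A8, an organic anion transporter, had one of 0.98 (SE 0.42) that was 0.41 without calves 8 and 13, and SLCO3A1 one of -0.81 (SE 0.43).

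In the lipoxygenase and leukotriene branch, which competes for arachidonic acid, 7 of 15 tested genes had higher and 8 lower values. MGST2, a microsomal glutathione transferase, had a difference of 0.68 (SE 0.18, adjusted p = 0.242) without overlap. ALOX5, the 5-lipoxygenase, had one of -0.86 (SE 0.25), or -0.42 with normexp. LTC4S, the leukotriene C4 synthase, had one of -1.01 (SE 0.32, adjusted p = 0.274). Without CON calf 14 this was -1.32, at an adjusted p of 0.0497 in limma, the only 1 of 17 alternatives in which LTC4S passed. Calf 14 was the CON calf nearest the HAY level, so leaving it out had to widen the difference.

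Of 17 tested genes of cyclic AMP and EP receptor signalling, 6 had higher and 11 lower values. CREM, a transcription factor that cyclic AMP induces, had a difference of -0.76 (SE 0.20, adjusted p = 0.232) without overlap. The adenylyl cyclase ADCY4 differed by -0.84 (SE 0.31) and the phosphodiesterase PDE4A by -0.65 (SE 0.24). These genes were named for their small p, and others of the list went the other way. NR4A1 differed by 0.47 (SE 0.18) and NR4A2 by 0.33 (SE 0.17), both named after their values were seen. Of 15 tested inducers of PTGS2, 8 were higher and 7 lower. The growth factor gene HBEGF had a difference of 0.81 (SE 0.20, adjusted p = 0.220) without overlap, the interleukin-1 receptor gene IL1R1 one of -0.55 (SE 0.15) without overlap, and TLR4, the lipopolysaccharide receptor, one of -0.69 (SE 0.22). Among 8 inhibitors and binding partners tested, the phosphatase gene DUSP1 had a difference of -0.69 (SE 0.20) and the caveolin gene CAV2 one of 0.40 (SE 0.15), both without overlap. SCGB1A1, uteroglobin, differed by 0.68 (SE 0.22).

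Several of these genes also moved by over 1.5 times in other settings. With normexp HPGDS differed by 0.14, CBR1 by 0.075, PDE4A by -0.38, SLCO3A1 by -0.53 and PTGER4 by 0.075. Without calves 8 and 13 the difference was -0.49 for CREM, -0.54 for ADCY4, -0.41 for PDE4A, -0.41 for ABCC4, -0.33 for SLCO3A1 and -0.14 for AKR1B1.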

How the data were processed

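Rumen epithelial RNA (500 ng) was amplified linearly and labelled with Cy3, per the labels' protocols. The deposited scanner files hold spot intensity on a linear scale, with spatial and multiplicative detrending switched on, per the file headers. The submitters' processing notes name Agilent Feature Extraction 9.5. The deposited table over all arrays holds log2 values. Its column medians were -3.12, -3.14 and -3.20 for calves 9, 10 and 13 and -3.09, -3.09, -3.08 and -3.11 for calves 8, 11, 12 and 14. Each column matched the log2 values computed here (SD of the difference at most 3.52e-04), which settled its scale and direction, and its genes were not centred.

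Control and outlier spots were left out, replicate spots were averaged in log2, and the 75th percentile of each array was subtracted. Probes that the scanner marked well above background on at least 3 of 7 arrays were tested, and all 10 members were among them. HAY was compared with CON in limma 3.58.1 under R 4.3.3, by lmFit and eBayes. P-values were adjusted by Benjamini-Hochberg over the 12604 probes kept, with a threshold of 0.05, two-sided. On simulated data with 12604 probes, 40 of 100 probes changed by a log2 of 1 and 81 of 100 changed by 2 were recovered, with 6 false calls. The SE of the members ran from 0.14 for PLA2G4A to 0.48 for PTGDS, so these rates are not those of any single member. The number of arrays limits the precision. Members were matched on the gene name of the file, and list genes on that name or on the RefSeq symbol (assembly ARS-UCD2.0), which 11194 probes have. The brightest probe of a gene was used. Named genes were all members, the 3 tested genes of smallest p in each list, and PTGES3, HPGDS, PTGIS, TBXAS1, PTGER1, PTGER3, PTGFR, PTGIR and ABCC4, with the 2 brightest markers of each cell type described. The result of 1 marker list is not reported here. Members and lists were chosen with earlier results of these data known. Exon and UTR annotation of UMD_3.1 was not used here. Alternatives covered background correction, scaling, the filter, spot averaging, the deposited table, the variance prior, slide column as a block and leaving out calves.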

Additional observations from a re-analysis of the deposited data

Results flagged for a closer look

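LTC4S, the leukotriene C4 synthase gene, had 1 CON calf far from the others. CON calf 14 stood at a log2 signal of -0.98, while the other 3 CON calves lay between 0.18 and 0.35. As a percentage of the 75th percentile, calf 14 was at 50.8% and the HAY calves at 46.5 to 50.1%. The gap took 0.871 of the range of the 4 CON calves, above Dixon's 95% critical value. Of 43 genes examined in this way, chance gives such a value in about 1 of 20 groups. CON calf 14 also had the lowest PTGDS, HPGD and PTGER3 of its group and the highest PTGDR.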

How the results depend on the processing

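PTGES, PTGS1, PTGDS, PTGES2, PLA2G4A and HPGD kept their sign in all 17 alternatives, and no member passed the adjusted limma threshold in any (lowest adjusted p = 0.095). Not all of these could turn a sign. Changing the filter, the spot averaging or the variance prior left every member's difference as it was, and the deposited table holds nearly the same values. For PTGES and PLA2G4A, whose groups did not overlap, leaving out calves could not turn the sign either. PTGES ran from -1.84 to -1.22 and had an unadjusted p under 0.05 in all 17, PLA2G4A (0.31 to 0.47) in 14. The other 4 members changed sign: PTGS2 to -0.13 and PTGER2 to -0.10 with normexp, and PTGER2 to -0.10 with slide column as a block, which takes CON calf 8 out. When each calf was left out, PTGS2 ran from -0.037 to 0.25, PTGER2 from -0.13 to 0.16, PTGER4 from -0.043 to 0.39, SLCO2A1 from -0.55 to 0.0016 and PTGIR from -0.035 to 0.30. Leaving out a calf gave 3 to 7 members with lower values in HAY and 1 to 3 members at an unadjusted p under 0.05. Without calves 8 and 13 there was 1 such member. Over all probes, 4 passed the adjusted threshold with quantile normalization, 2 with the slide column, 5 without calves 8 and 13 and 1 to 21 when each calf was left out. At an unadjusted p under 0.05 stood 983 to 2343 probes when each calf was left out and 747 without calves 8 and 13. PTGIR also changed sign with normexp (-0.10) and without calves 8 and 13 (-0.045), and CBR3 without those calves (0.023). The share of higher values among probes at that p was 36.7% with the slide column and 61.5% with median centring. Members near the low end of the signal, PTGS2 and PTGER2, are limited by the signal over background.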
